A study of Mus musculus with 6 samples.

Results

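Cholesterol synthesis and its control by the sterol regulatory element-binding proteins (SREBPs) were followed through 28 genes, which make up 28 of the 24421 genes in the deposited count table. They were picked by symbol as enzymes of the mevalonate and sterol pathway and as regulators of SREBP, together with Stard4, a sterol carrier. RNA came from lineage-depleted bone marrow of C57BL/6 mice with the genotype Dek -/-, in 3 libraries treated with exogenous DEK, a chromatin protein added from outside the cells, and 3 treated with vehicle. All 6 libraries therefore lack a normal Dek gene by their labels, and a wild-type group was not analysed here. The marrow was flushed from the femur and passed over columns that remove lineage-marked cells. The labels give no age, dose, treatment time or source of the DEK. They do not say whether libraries came from separate animals, so p-values measure the spread between these libraries, which may be technical.

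Cholesterol is built from acetyl-CoA through mevalonate, isoprenoid diphosphates, squalene and lanosterol, and the same isoprenoids supply the lipid anchors of small GTPases. When sterols in the endoplasmic reticulum are scarce, Scap escorts SREBP to the Golgi apparatus, where a pair of membrane proteases releases the transcription factor. When sterols are plentiful, Insig proteins hold the complex back, and most enzymes of the pathway are transcribed less. Dividing blood progenitors need sterols for new membranes.

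SREBP binds sterol regulatory elements in promoters, commonly with NF-Y and Sp1 beside it, so 4 enzyme promoters are printed here. Hmgcs1 carries the sterol element letters, and Mvk, Mvd and Msmo1 are examples of early and late enzymes. Sequences come from RefSeq on GRCm38.p6, the assembly that mm10 names, and 24 of the 28 genes matched an entry. The genes Fdps, Fdft1, Sqle and Stard4 did not match. For each gene the 250 bases before the start site nearest the 5′ end in the count table were searched on both strands. The printed windows are Hmgcs1 on chr13:119690101-119690350 (plus strand), Mvk on chr5:114444019-114444268 (plus strand), Mvd on chr8:122443423-122443672 (minus strand), Msmo1 on chr8:64733579-64733828 (minus strand). Capitals mark TCACNCCAC, the core of the sterol regulatory element, and CCAAT, which the factor NF-Y binds, or their reverse complements.
Hmgcs1: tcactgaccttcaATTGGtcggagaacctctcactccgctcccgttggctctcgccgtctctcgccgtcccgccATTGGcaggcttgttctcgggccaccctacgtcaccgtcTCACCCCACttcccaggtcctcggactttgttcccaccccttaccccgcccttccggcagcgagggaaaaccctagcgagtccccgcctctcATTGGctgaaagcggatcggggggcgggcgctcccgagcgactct
Mvk: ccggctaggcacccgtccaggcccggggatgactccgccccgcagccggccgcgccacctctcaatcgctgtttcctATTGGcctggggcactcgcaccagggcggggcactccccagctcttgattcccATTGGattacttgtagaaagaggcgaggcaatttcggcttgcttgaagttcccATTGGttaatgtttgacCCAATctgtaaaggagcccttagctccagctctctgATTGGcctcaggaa
Mvd: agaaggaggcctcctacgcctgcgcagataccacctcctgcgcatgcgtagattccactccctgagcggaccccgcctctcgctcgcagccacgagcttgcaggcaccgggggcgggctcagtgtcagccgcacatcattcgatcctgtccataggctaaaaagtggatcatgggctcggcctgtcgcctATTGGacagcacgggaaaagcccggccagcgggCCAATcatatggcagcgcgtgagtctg
Msmo1: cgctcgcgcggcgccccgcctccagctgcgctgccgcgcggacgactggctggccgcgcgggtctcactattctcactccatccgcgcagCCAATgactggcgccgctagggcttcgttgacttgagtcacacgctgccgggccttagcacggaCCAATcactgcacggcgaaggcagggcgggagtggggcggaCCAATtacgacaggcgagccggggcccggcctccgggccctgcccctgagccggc
The letters TCACNCCAC occurred in 1 of the 24 windows, that of Hmgcs1 (4.17%), where TCACCCCAC began 137 bases before the start site, and in 1.05% of all 32851 windows of this length. CCAAT occurred in 17 of the 24 (70.8%) and in 33.8% of all windows. At least 2 copies were present in 11 of the 24 (45.8%) and in 10.1% of all windows, and Mvk held 5. The 4 printed windows held 2 to 5 copies, so they are not typical of the 24. Among the others the number ran from 0, as in Acat2, Pmvk and Dhcr7, to 3, as in Ggps1 and Hsd17b7. GGGCGG, the box that Sp1 binds, occurred in 19 of 24 (79.2%) and in 32.7% of all windows. The 32851 windows hold every start site listed and were not limited to genes expressed here. The 24 genes gave 1 window each, so these shares come from unlike sets. Whether the 24 differ from other expressed genes was not tested. No match of one motif overlapped a match of another in these 24 windows. A match is a run of letters and not a measured site. Only exact letters were searched, so a window without a match may still hold a site.

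The pathway was expressed at every step. Levels per length of exon (RPKM, from counts scaled by TMM, edgeR's library scaling) ran from about 1 to just over 100 RPKM. The highest were those of Msmo1, the methylsterol oxidase, at 105.6 ± 7.34 RPKM in DEK libraries and 96.6 ± 3.82 RPKM in vehicle libraries (SD, n = 3 each), and of Lbr, at 100.8 ± 15.2 RPKM in DEK and 106.9 ± 11 RPKM in vehicle libraries. Lbr encodes the lamin B receptor, a protein of the nuclear envelope that is also a sterol reductase. Hmgcs1, the synthase that opens the pathway to mevalonate, Fdps, the farnesyl diphosphate synthase, and Srebf2, the gene of the SREBP that mainly serves cholesterol synthesis, came next, at 68.1 to 73.1 RPKM in vehicle libraries. At the low end, Idi1, the isopentenyl diphosphate isomerase, stood at 1.12 ± 0.121 RPKM in DEK and 1.25 ± 0.246 RPKM in vehicle libraries. Lss, which closes squalene to lanosterol, and Hsd17b7, a sterol ketone reductase, were also low per length of exon, at 7.14 and 6.51 RPKM with vehicle. The level of Lss is uncertain. It was divided by 6329 bases of exon, and reads in exons shared with 4930483K19Rik were not counted. Of the 27 neighbouring pairs in the vehicle order, 21 had ranges that overlapped, so most of the order between neighbours is within the spread of the libraries.

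**Figure D1:**
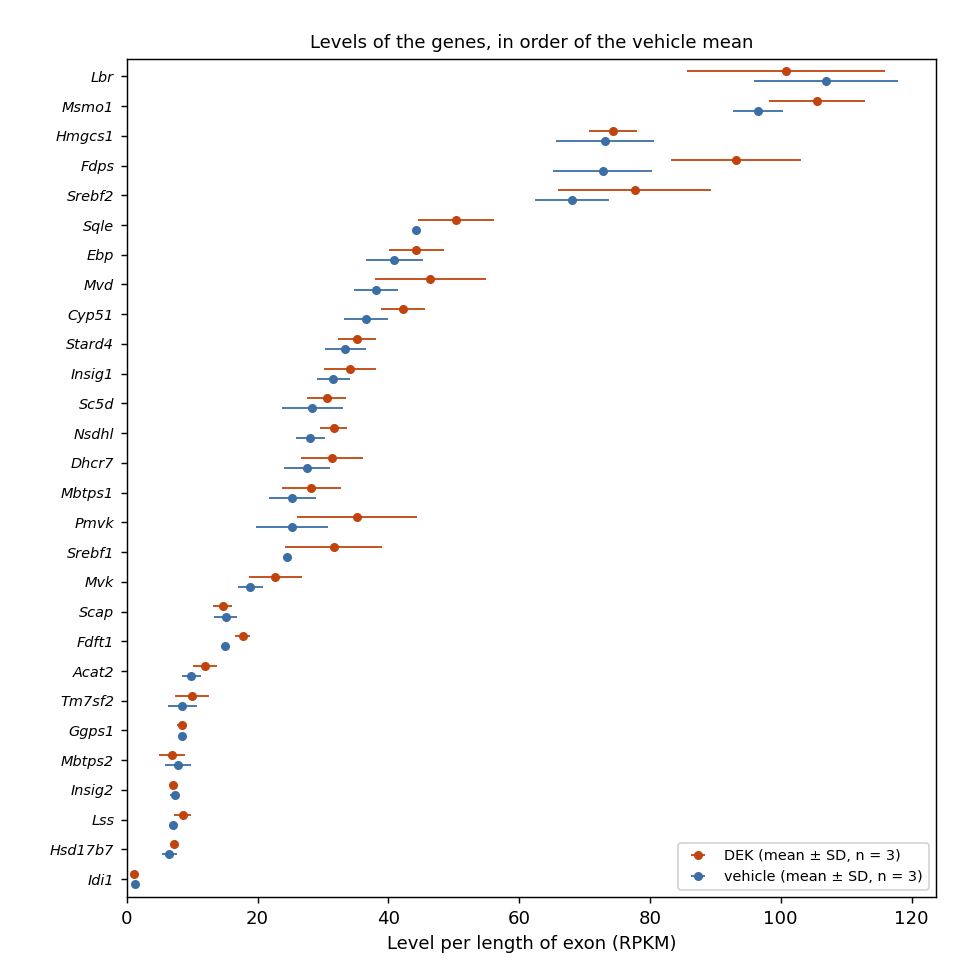
Level of each of the 28 genes per length of exon (RPKM, mean ± SD, n = 3) in DEK libraries (upper, red) and vehicle libraries (lower, blue), ordered by the vehicle mean. Msmo1 and Lbr are highest, near 100 RPKM, and Idi1 is lowest, near 1 RPKM.

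Depth ran from 42496076 to 49128378 counts in the DEK libraries and from 34875736 to 48867857 in the vehicle libraries. The progenitor markers were well represented, with Kit at 153.7 to 272.2 CPM in DEK and 157.7 to 304.9 CPM in vehicle libraries (CPM, library-scaled read counts, TMM applied). Globin genes, the defining markers of red cells, had 0 counts for 3 of the 4 listed in all 6 libraries. Dek counts were 781, 869 and 712 in the DEK libraries and 863, 672 and 733 in the vehicle libraries, and a count over the whole gene does not check the deletion. Replicate 3 of each group was set apart by several marker lists. The 10 neutrophil markers summed to 63750 CPM in DEK replicate 3 and 66813 CPM in vehicle replicate 3. The other DEK libraries had 8058 and 6076 CPM and the other vehicle libraries 6870 and 6338 CPM. Erythroid markers were also higher in replicate 3, at 2757 CPM in DEK and 1635 CPM in vehicle, against 483.8 to 700.9 CPM elsewhere. Eosinophil markers were lower, at 3367 and 4709 CPM against 8116 to 14292 CPM. B cell markers were lower too, at 108.2 and 86.36 CPM against 218.6 to 254.8 CPM. Within pairs, edgeR called 3 of 8 macrophage and 2 of 8 eosinophil markers lower, against 0.413% of all genes. It called 1 of 10 neutrophil markers higher, against 0.869% of all genes. None of the progenitor, erythroid, B cell, T cell and proliferation markers tested was called, and only 4 of the 8 erythroid markers were tested. The ribosomal precursor Rn45s took 4.89% of the counts of vehicle replicate 1 and 0.159% to 0.331% elsewhere. The comparison was made without pairing and within pairs of equal number. Number 1, 2 or 3 means the DEK and vehicle libraries that share that replicate number. Deviations from group means correlated by 0.55, 0.56 and 0.80 between libraries of equal number 1, 2 and 3. Unequal numbers 1 and 2 correlated nearly as closely, by 0.52 and 0.41, so only number 3 stood apart. The matching within numbers 1 and 2 may therefore be arbitrary. In bulk RNA, fewer cells of a type and less RNA per cell cannot be told apart.

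After a filter on low counts, edgeR's test over all 6 libraries called no gene of the 28 at an adjusted p under 0.05. This held with and without pairing. With no filter, Pmvk was called within pairs (adjusted p = 0.0126, edgeR). Without pairing, 0 of 28 were called by edgeR, DESeq2 or limma-voom, against 0% of all 13803 genes tested by edgeR and 0.42% by DESeq2. There 1 member, Fdps, had an unadjusted p under 0.05 by edgeR, as did 2.61% of all genes. Within pairs, edgeR called 0 of 28, against 1.28% of all genes, 0.869% higher and 0.413% lower. There 9 members had an unadjusted p under 0.05, each with the higher value in DEK libraries (32.1%, against 6.03% of all genes in that direction and 5.42% in the other). All 28 had passed the filter on low counts, with a lowest count of 94, that of Idi1 in one library. The smallest adjusted p within pairs was 0.0576, for Pmvk (edgeR). With libraries left out, no member was called without DEK replicate 3 (0.00719% of all genes called), without number 1 within pairs (1.3%), without number 2 within pairs (0%) or without number 3 of both groups and no pairing (1.22%). Without number 3 within pairs, Pmvk and Fdps were called, against 4.64% of all genes.

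The differences leaned one way. The log2 fold change within pairs (DEK minus vehicle) was above 0 for 22 of 28 members (78.6%) and for 49.4% of all genes tested. Its median was 0.17 for the members and 0.00 for all genes, and the members ran from -0.18 to 0.47. The medians in numbers 1, 2 and 3 were 0.14, 0.23 and 0.12 for the members, and -0.02, 0.01 and 0.00 for all genes. In 16 of 28 members (57.1%) the DEK library was above the vehicle library in each of the 3 numbers, as in 16.3% of all genes. In 2 of 28 (7.14%), Lbr and Mbtps2, it was below in each number, as in 17.9% of all genes. Groups did not overlap for 2 of 28 (7.14%), Fdps and Fdft1, both higher with DEK, against 3.78% of all genes in that direction, and none was lower without overlap, against 3.41%. These members were chosen with earlier results of the same libraries known, and a lean upward in cholesterol genes was among those results.

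**Figure D2:**
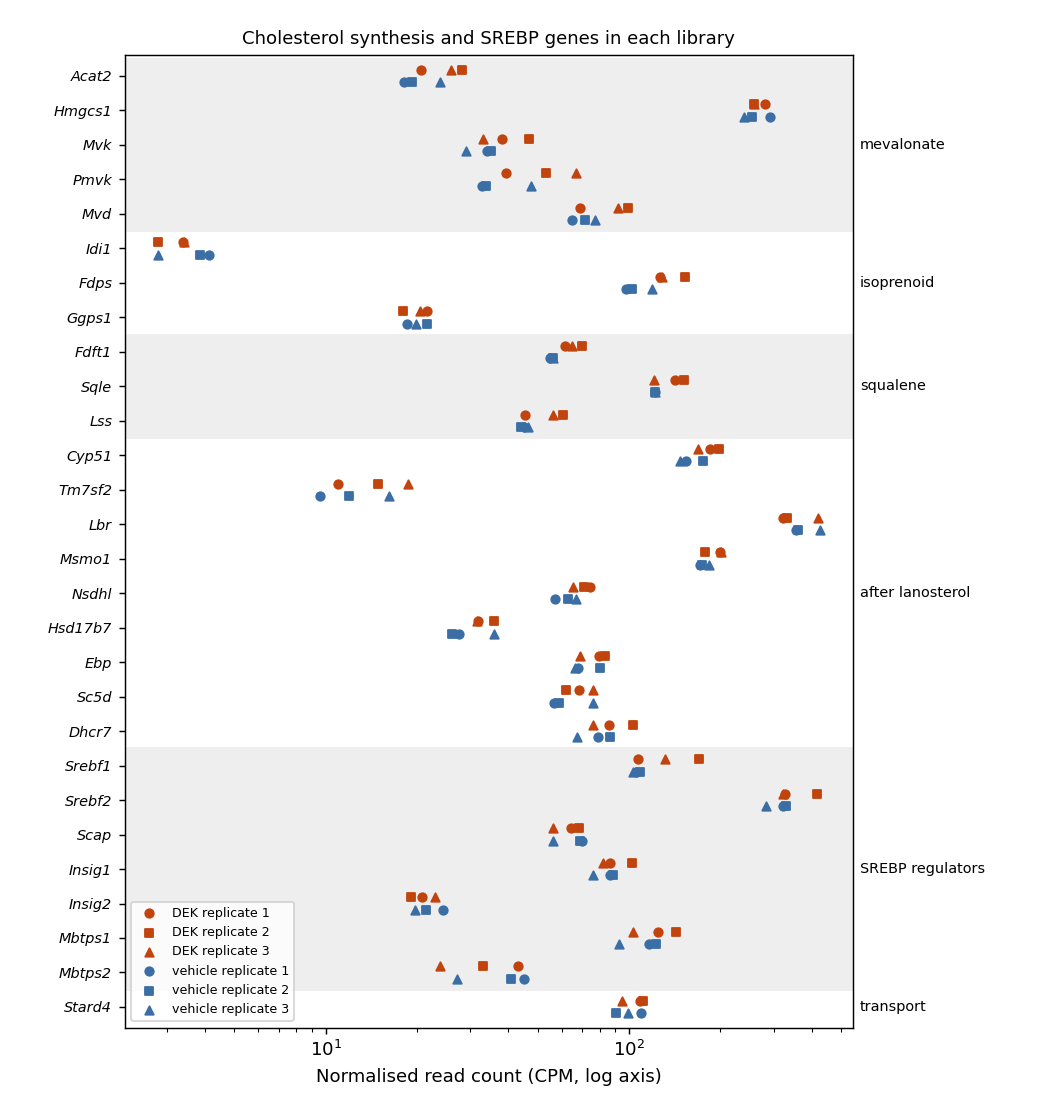
Normalised read count (CPM, log axis) of each gene in each of the 6 libraries, grouped by pathway step, with DEK libraries in red above vehicle libraries in blue and the replicate number given by the marker shape. The 3 DEK values lie clear of the 3 vehicle values for Fdps and Fdft1.

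Among the thiolase and mevalonate enzymes, all 5 estimates were above 0, with a median log2 fold change of 0.27 within pairs and no call. Pmvk (chromosome 3, 89459118 to 89469009, plus strand), the phosphomevalonate kinase, stood at 39.3, 53.0 and 66.7 CPM in DEK libraries 1, 2 and 3 and at 32.7, 33.8 and 47.6 CPM in vehicle libraries 1, 2 and 3. Each DEK library was above the vehicle library of its number, while DEK 1 lay below vehicle 3, so the groups overlapped. Its log2 fold change was 0.47 ± 0.11 (SE) within pairs, a 1.38-fold difference (95% interval 0.24 to 0.70 on the log2 scale; adjusted p = 0.0576, edgeR). DESeq2 within pairs called Pmvk alone of the 28 (adjusted p = 0.0199; 2.51% of all genes called). With no filter on low counts edgeR also called it alone (adjusted p = 0.0126; 1.93% called). Without number 2 its value was 0.39 (adjusted p = 0.847, edgeR within pairs). Without pairing the SE was 0.24 and the interval -0.09 to 1.05.

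Mvd, the decarboxylase that makes isopentenyl diphosphate, had 68.7, 99.1 and 91.9 CPM in DEK libraries and 64.6, 71.8 and 77.0 CPM in vehicle libraries. DEK 2 and 3 were above every vehicle library and DEK 1 lay within their range (log2 fold change 0.27 ± 0.10, SE; adjusted p = 0.292, edgeR within pairs). Mvk, the mevalonate kinase, had 38.1, 46.9 and 33.1 CPM in DEK and 34.1, 35.05 and 29.0 CPM in vehicle libraries, above in 3 of 3 numbers with overlapping groups (0.26 ± 0.11; adjusted p = 0.365, edgeR within pairs). Acat2, the cytosolic thiolase, had 20.6, 28.2 and 25.9 CPM in DEK and 18.2, 19.2 and 23.9 CPM in vehicle libraries (0.28 ± 0.12; adjusted p = 0.404, edgeR within pairs). It has a close paralog, Acat3, which had 1 to 8 counts per library, and reads that match both could be lost, so its level is uncertain.

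The estimate for Hmgcs1 was near 0. It had 281.1, 258.4 and 258.6 CPM in DEK libraries and 291.1, 254.2 and 238.9 CPM in vehicle libraries. The groups overlapped fully, and the log2 fold change within pairs was 0.03 ± 0.09 (SE), with a 95% interval of -0.17 to 0.23 (adjusted p = 0.937, edgeR).

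The isoprenoid enzymes split. Fdps (chromosome 3, 89093588 to 89101967, minus strand) had 126.7, 152.7 and 128.8 CPM in DEK libraries and 97.9, 102.4 and 118.9 CPM in vehicle libraries. Every DEK library was above every vehicle library. Its log2 fold change was 0.35 ± 0.10 (SE) within pairs, or 1.28-fold (adjusted p = 0.164, edgeR), and 0.35 ± 0.13 without pairing. With the libraries numbered 3 left out, Fdps was called within pairs (log2 fold change 0.47, adjusted p = 0.00353, edgeR), as was Pmvk (0.46, adjusted p = 0.0198, edgeR), against 4.64% of all genes. In number 3 alone the log2 difference of Fdps was 0.11, against 0.37 and 0.58 in numbers 1 and 2. Ggps1, which makes the geranylgeranyl anchor, had 21.55, 17.9 and 20.4 CPM in DEK and 18.6, 21.5 and 19.9 CPM in vehicle libraries, with a log2 fold change of 0.00 ± 0.13 (SE). Idi1 had 3.39, 2.80 and 3.40 CPM in DEK libraries and 4.14, 3.85 and 2.80 CPM in vehicle libraries, and its value of -0.16 ± 0.21 (SE) has a wide interval, -0.63 to 0.30.

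The enzymes from farnesyl diphosphate to lanosterol all had estimates above 0, with a median of 0.23 within pairs and no call. Fdft1, the squalene synthase, had 61.5, 69.8 and 65.0 CPM in DEK libraries and 54.7, 56.2 and 56.1 CPM in vehicle libraries. The vehicle values were close together and every DEK value lay above them (0.23 ± 0.09, SE; adjusted p = 0.342, edgeR within pairs). Its exons overlap those of Ctsb on the opposite strand, and reads there were not counted for either gene, so the value is uncertain. Sqle, the squalene epoxidase, had 142.0, 152.1 and 121.0 CPM in DEK and 121.5, 121.7 and 121.6 CPM in vehicle libraries. DEK 1 and 2 were above the vehicle libraries and DEK 3 just below them (0.18 ± 0.10; adjusted p = 0.526, edgeR within pairs). Lss had 45.3, 60.6 and 56.1 CPM in DEK and 45.1, 44.0 and 46.5 CPM in vehicle libraries (0.25 ± 0.11; adjusted p = 0.407, edgeR within pairs), and the exons of 4930483K19Rik on the opposite strand make it uncertain too.

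Of the 9 enzymes after lanosterol, 8 were above 0, the median within pairs was 0.16 and none was called. Cyp51, the lanosterol demethylase, had 185.2, 197.7 and 168.3 CPM in DEK and 154.3, 175.6 and 147.4 CPM in vehicle libraries, above in each number with overlapping groups (0.21 ± 0.09, SE; adjusted p = 0.389, edgeR within pairs). Dhcr7, a reductase of the last steps, had 85.8, 102.6 and 76.2 CPM in DEK and 79.2, 86.6 and 67.1 CPM in vehicle libraries (0.18 ± 0.09; adjusted p = 0.488, edgeR within pairs). Msmo1, Ebp, Sc5d, Nsdhl and Hsd17b7, which act between these enzymes, had values from 0.11 to 0.17.

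Tm7sf2 and Lbr both encode reductases of the sterol double bond left by Cyp51. Tm7sf2 had 11.01, 14.9 and 18.6 CPM in DEK libraries and 9.57, 11.96 and 16.1 CPM in vehicle libraries (0.24 ± 0.12, SE; adjusted p = 0.499, edgeR within pairs). Lbr had 322.1, 331.8 and 419.9 CPM in DEK and 355.1, 359.4 and 424.7 CPM in vehicle libraries, below in each number (-0.09 ± 0.09; adjusted p = 0.764, edgeR within pairs). Both were highest in the libraries numbered 3. Tm7sf2 shares exon sequence with Vps51 on the same strand, which makes its value uncertain.

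Among the SREBP regulators, 4 of 7 estimates were above 0, the median was 0.11 and none was called. Srebf1 (chromosome 11, 60199089 to 60220604, minus strand), whose products also drive fatty acid synthesis, had 106.9, 170.3 and 130.9 CPM in DEK libraries and 105.2, 108.2 and 102.7 CPM in vehicle libraries. DEK 1 lay among the vehicle libraries, and DEK 2 and 3 lay above them. The log2 fold change was 0.34 ± 0.12 (SE; adjusted p = 0.270, edgeR within pairs) and 0.20 without number 2 (adjusted p = 0.997, edgeR within pairs). Its exons overlap those of Rai1 on the opposite strand, so the value is uncertain. Srebf2 had 326.8, 416.8 and 321.8 CPM in DEK and 322.2, 329.6 and 282.0 CPM in vehicle libraries (0.18 ± 0.10; adjusted p = 0.523, edgeR within pairs), with DEK 2 again the highest.

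Of the genes whose proteins hold, escort and cut SREBP, none was called. Insig1, itself a target of SREBP, had 86.5, 102.2 and 82.1 CPM in DEK and 86.5, 88.6 and 76.1 CPM in vehicle libraries (0.11 ± 0.09, SE), and Insig2 was at -0.06 ± 0.13. Scap was at -0.04 ± 0.09, with a 95% interval of -0.24 to 0.16. The genes of the Golgi proteases, which cut SREBP in turn, had estimates on opposite sides of 0. Mbtps1 had 124.7, 142.7 and 103.2 CPM in DEK and 116.6, 122.3 and 92.8 CPM in vehicle libraries (0.16 ± 0.09). Mbtps2 had 43.1, 33.1 and 23.8 CPM in DEK and 45.0, 40.8 and 27.1 CPM in vehicle libraries (-0.18 ± 0.11), below in each number. Both had an adjusted p of 0.553 (edgeR within pairs). Stard4 stood at 94.96 to 111.4 CPM in DEK and 90.6 to 109.4 CPM in vehicle libraries (0.08 ± 0.10).

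**Figure D3:**
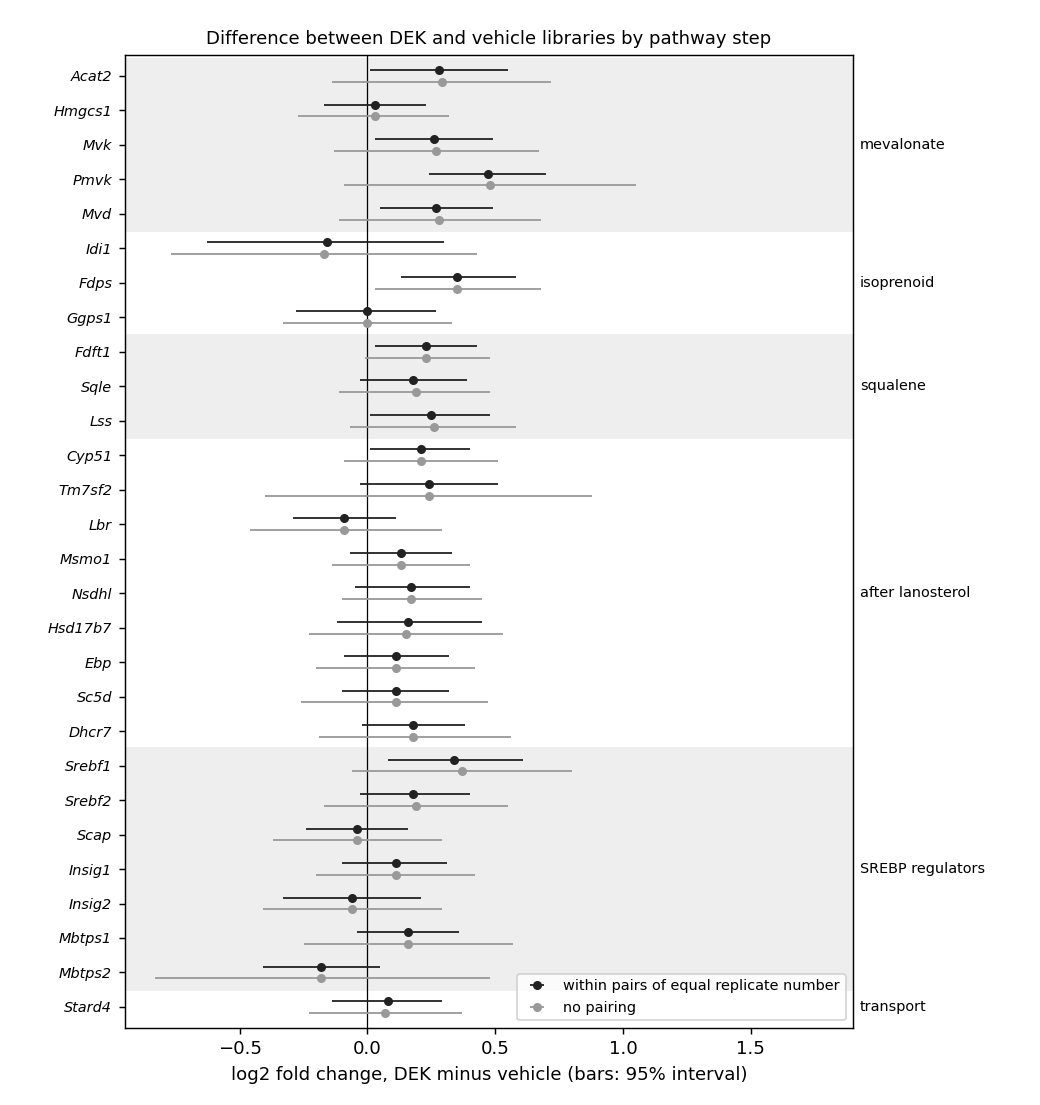
Log2 fold change (DEK minus vehicle) of each gene with its 95% interval, within pairs of equal replicate number (upper, black) and without pairing (lower, grey), by pathway step. Within pairs 9 intervals lie above 0 and none below, and without pairing that of Fdps alone lies above 0.

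DEK replicate 2 had the highest value of the 6 libraries for 16 of 28 members (57.1%) and for 20.7% of all genes tested. Number 2 gave the largest of the 3 differences for 16 of 28 members (57.1%) and for 35.1% of all genes. Leaving out DEK replicate 2 from the unpaired comparison lowered the members' median to 0.10, against 0.17 with all libraries. The 28 members summed to 2788, 3082 and 2832 CPM in DEK libraries and to 2639, 2670 and 2621 CPM in vehicle libraries, ratios of 1.06, 1.15 and 1.08 in numbers 1, 2 and 3. Proliferation markers summed to 1425, 1610 and 1631 CPM in DEK and 1207, 1290 and 2025 CPM in vehicle libraries, with ratios of 1.18, 1.25 and 0.805. Within pairs, 0 of the 9 were called by edgeR, and none was at 0 counts. Their part in the members' differences was not tested.

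The libraries numbered 3 differed from the others in the same direction in both groups for a part of the members. Replicate 3 was the highest library of its group in both groups for 5 of 28 members and the lowest in both for 9 of 28. The shares of all genes were 31.5% and 32.8%, so neither pattern was more common among the members. Set against the mean of replicates 1 and 2, Pmvk was higher in replicate 3 by 0.55 in DEK and 0.52 in vehicle libraries on the log2 scale, and Tm7sf2 by 0.54 and 0.59. Mbtps2 stood at -0.67 in DEK and -0.66 in vehicle libraries on the same measure. The log2 fold changes between DEK and vehicle within pairs were 0.47, 0.24 and -0.18 for Pmvk, Tm7sf2 and Mbtps2, and Pmvk reached 0.65 in number 2. Of the 7 SREBP regulators, 5 were lowest in replicate 3 in both groups and none was highest, against 32.8% and 31.5% of all genes.

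**Figure D4:**
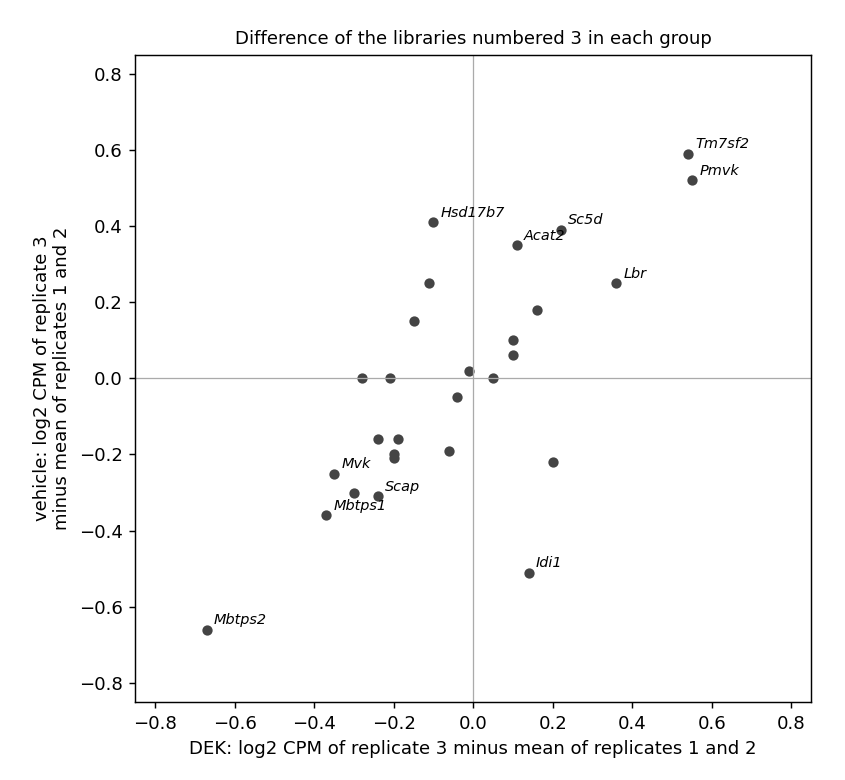
Log2 CPM of replicate 3 minus the mean of replicates 1 and 2, in the DEK group (horizontal) and in the vehicle group (vertical), 1 point per gene. Tm7sf2 and Pmvk lie above 0.5 and Mbtps2 below -0.5 in both groups.

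Other genes of sterol and lipid handling were taken from lists of the same pathway. Of 6 tested genes of synthesis and uptake outside the 28, all 6 were above 0 within pairs, with a median of 0.17 and no call. Vldlr, a lipoprotein receptor, had 7.24, 6.03 and 10.2 CPM in DEK libraries and 6.07, 4.03 and 8.66 CPM in vehicle libraries. Each DEK library was above the vehicle library of its number, and the groups overlapped (0.35 ± 0.16, SE; adjusted p = 0.424, edgeR within pairs). Tmem97, a sterol-responsive membrane protein, had 27.0, 27.4 and 21.6 CPM in DEK and 21.2, 23.8 and 20.45 CPM in vehicle libraries, also above in each number with overlapping groups (0.21 ± 0.12; adjusted p = 0.524, edgeR within pairs).

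Among the fatty acid genes that SREBP drives, edgeR called 2 of 13 higher within pairs and none lower (0.869% and 0.413% of all genes), with a median of 0.18. Fads2, a desaturase of polyunsaturated fatty acids, had 70.7, 90.4 and 59.7 CPM in DEK libraries and 48.1, 52.3 and 44.0 CPM in vehicle libraries. The groups did not overlap, and the difference was 1.51-fold (log2 fold change 0.60 ± 0.10, SE; adjusted p = 0.0130, edgeR within pairs). Scd2, a desaturase that makes monounsaturated fatty acids, had 531.0, 708.9 and 571.6 CPM in DEK and 379.5, 422.3 and 448.6 CPM in vehicle libraries, also apart, and rose 1.44-fold (0.53 ± 0.11; adjusted p = 0.0308, edgeR within pairs). Mir5114 lies within its exons on the same strand. Neither passed without pairing when all libraries were used. Without number 2, Fads2 stood at 0.51 and Scd2 at 0.43, with adjusted p of 0.504 and 0.735 (edgeR within pairs), and Scd2 also missed the threshold without number 1 (adjusted p = 0.126, edgeR). Fads1, the neighbouring desaturase gene, chosen after its value was seen, had 69.4, 76.3 and 69.0 CPM in DEK and 69.2, 72.1 and 63.5 CPM in vehicle libraries (0.07 ± 0.09).

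Among genes of sterol storage and transport inside the cell, edgeR called 1 of 13 lower within pairs and none higher, against 0.413% and 0.869% of all genes. Estimates were above 0 for 3 of 13 within pairs and for 6 of 13 without pairing, where 49.4% of all genes were above 0 within pairs, and the medians were -0.06 and -0.01. Nceh1, a hydrolase of cholesterol esters, had 130.7, 110.1 and 90.4 CPM in DEK libraries and 185.8, 186.3 and 109.2 CPM in vehicle libraries. It fell 1.43-fold (-0.51 ± 0.11, SE; adjusted p = 0.0360, edgeR within pairs), and did not pass without pairing (-0.54 ± 0.25, 95% interval -1.13 to 0.05). The groups overlapped through vehicle 3. Within pairs it missed the threshold without number 1 (adjusted p = 0.145, edgeR) and without number 2 (adjusted p = 0.831, edgeR). The lysosomal genes Lipa, an acid lipase, and Npc1, a cholesterol exporter, were chosen after their values were seen and did not pass (-0.53 ± 0.15 and -0.43 ± 0.11; adjusted p = 0.207 and 0.0907, edgeR within pairs), and Npc1 overlaps 3110002H16Rik on the opposite strand.

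Of 9 genes of the liver X receptors and their targets, 3 were above 0, none was called and the median was -0.09. Abcg1, a cholesterol exporter active in macrophages, had 41.2, 50.03 and 78.6 CPM in DEK and 55.3, 70.8 and 78.4 CPM in vehicle libraries (-0.31 ± 0.11, SE; adjusted p = 0.288, edgeR within pairs), and was called within pairs without number 3 (adjusted p = 0.0109, edgeR). Lpcat3, a phospholipid-remodelling enzyme, stood at 0.21 ± 0.09 (adjusted p = 0.402, edgeR within pairs), and its exons overlap those of Emg1 on the opposite strand. Apoe, an apolipoprotein that macrophages secrete, was chosen after its values were seen. It had 126.2, 110.5 and 87.4 CPM in DEK libraries and 525.9, 678.1 and 149.2 CPM in vehicle libraries, so every DEK library was below every vehicle library (-1.83 ± 0.53; adjusted p = 0.460, edgeR within pairs). Beside these genes, 3 of 8 macrophage markers fell within pairs (C1qb, C1qc and Mertk), against 0.413% of all genes, and none passed without pairing. These 3 were low, at 0.276 to 17.12 CPM over the 6 libraries. Adgre1 (342.4 to 595.1 CPM) and Vcam1 (196.7 to 346.1 CPM) held most of the summed level. Neither was called (-0.08 ± 0.12 and -0.19 ± 0.14, SE; adjusted p = 0.836 and 0.679, edgeR within pairs). Mrc1 had 57.81, 31.4 and 14.65 CPM in DEK libraries and 73.83, 80.97 and 113.2 CPM in vehicle libraries. Its groups did not overlap, and it was not called (-1.53 ± 0.75; adjusted p = 0.623, edgeR within pairs). C1qa stood at -0.88 ± 0.29 and Cd5l at -0.24 ± 0.45, also not called. The median of the 8 within pairs was -1.01. The sum of the 8 was 636.7 to 891.2 CPM in DEK and 793.7 to 995.7 CPM in vehicle libraries, with none at 0 counts. Of 8 eosinophil markers, with a median of -0.53 within pairs, 2 fell (Epx and Prg3), against 0.413% of all genes. None passed without pairing. Their sum was 11177, 8116 and 3367 CPM in DEK libraries and 14292, 12937 and 4709 CPM in vehicle libraries, ratios of 0.782, 0.627 and 0.715 in numbers 1, 2 and 3, with none at 0 counts. The part of both marker lists in the values of Nceh1, Apoe and Abcg1 was not tested. The remaining lists had no call, with medians of -0.14 for 3 oxysterol enzymes, 0.05 for 10 enzymes that use isoprenoids outside sterol synthesis and -0.03 for 7 regulators of sterol sensing. Their smallest p within pairs belonged to Cyp27a1 (-0.23 ± 0.12) and Hsd3b7 (0.11 ± 0.11), Coq2 (0.24 ± 0.12) and Pdss1 (0.34 ± 0.17), and Fbxw7 (-0.21 ± 0.12) and Erlin2 (-0.10 ± 0.09). Pdss1 and Fbxw7 share exon sequence with Abi1 and Dear1 on the opposite strand.

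**Figure D5:**
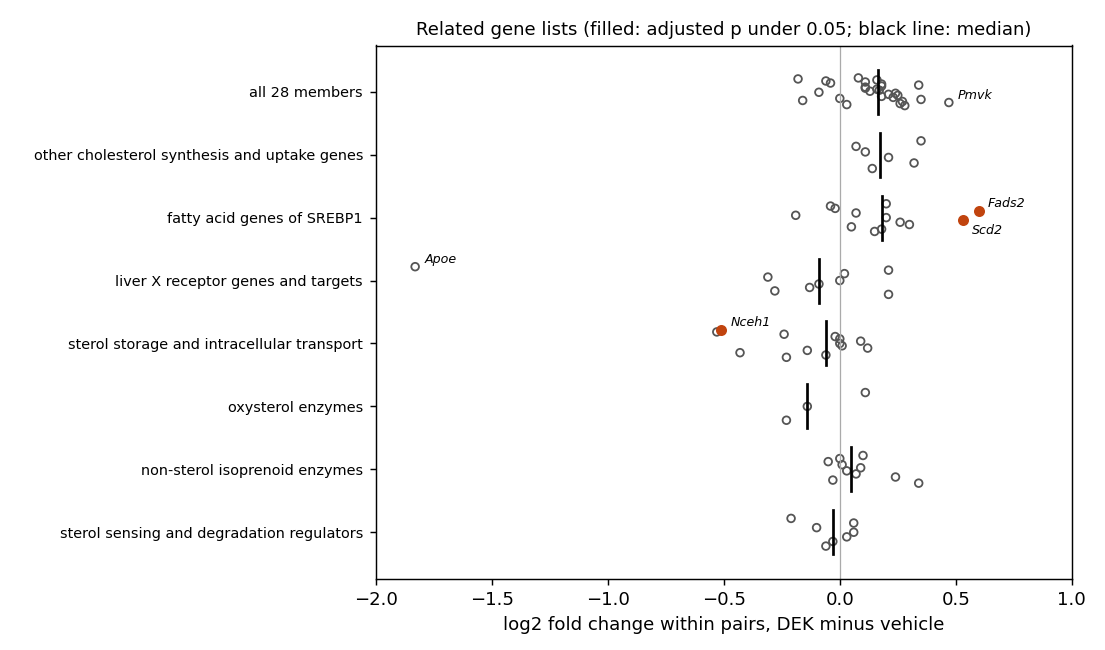
Log2 fold change within pairs (DEK minus vehicle) of the 28 genes and of 7 related lists, 1 circle per gene, with the median as a black line and genes past an adjusted p of 0.05 filled. Fads2 and Scd2 are filled above 0 and Nceh1 below 0, and no gene of the 28 is filled.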

How the data were processed

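RNA-seq read counts per gene were deposited for 6 libraries. Per the file headers, the authors counted reads with featureCounts 1.6.1 over exons of an mm10 annotation, with no strand, overlap or paired-read option, so reads in exons of more than 1 gene, on either strand, were not counted. Per the labels, libraries were made with a stranded kit for polyadenylated RNA, and the submitters' processing notes also name Trim Galore, STAR, HTSeq and edgeR.

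The tools were R 4.3.3, DESeq2 1.42.0, edgeR 4.0.16 and limma 3.58.1. All 13803 genes that passed filterByExpr were tested by edgeR's quasi-likelihood test (TMM, robust, two-sided), adjusted by Benjamini-Hochberg over all of them, threshold 0.05. SEs come from the F statistic. Log2 CPM used a prior count of 2. RPKM used the exon lengths of the table. The comparison without pairing is the main one. Deviations from group means correlated by 0.55, 0.56 and 0.80 between libraries of equal number 1, 2 and 3, over the set limit of 0.1, so values within pairs, from a replicate block, are given too, and single-gene values come from that fit. Unequal numbers 1 and 2 also correlated, by 0.52 and 0.41, so they need not be true pairs. The script was tested on simulated data. Depth was 34875736 to 49128378 counts per library.

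The 28 genes, the lists and the pathway steps were chosen with earlier results of these data known. All 28 are named, with, per related list, up to 4 called genes or the 2 with the smallest p within pairs. Of the listed symbols, Ufd1 and Trbc2 had no row. Some genes of the related lists are not reported here, and the counts, medians and named genes of those lists are over the rest. Alternatives were the tool, scaling, low-count filter, replicate block and libraries left out.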

Additional observations from a re-analysis of the deposited data

How the results depend on the processing

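Without pairing, the count of called genes was 0 with edgeR under TMM or DESeq2 size factors, with no low-count filter and with limma-voom, and 58 with DESeq2, none of them among the 28. With the replicate block, edgeR called 177 genes, 176 with DESeq2 size factors and 349 with no low-count filter, and DESeq2 called 347. The last 2 fits called 1 member, Pmvk, and the first 2 called 0. Leaving out libraries gave 0 to 641 called genes and 0 to 2 called members. The 641 came within pairs without number 3, and without number 2 there were 0. Leaving out number 3 of both groups with no block, chosen after seeing the data, gave 168, and leaving out DEK replicate 3 alone gave 1.

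The members' median stayed at 0.17 under each other tool, scaling and filter, and ran from 0.10 to 0.20 with libraries left out, lowest without DEK replicate 2. The median of all genes stayed within 0.02 of 0 in all settings. Some estimates changed sign. Ggps1 was 0.00 with no low-count filter, with and without the block. With libraries left out, Ggps1 ran from -0.12 to 0.14, Hmgcs1 from -0.03 to 0.11, Insig2 from -0.20 to 0.03, Scap from -0.13 to 0.03, Lbr from -0.22 to 0.00, Mbtps2 from -0.41 to 0.02, Stard4 from -0.02 to 0.15, Fbxw7 from -0.42 to 0.01 and Hsd3b7 from -0.03 to 0.21. The cause was not tested. With 3 libraries a group, the median SE among the members was 0.15 without pairing and 0.10 within pairs.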
